A study of Homo sapiens with 8 samples.

Results

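Genes of iron uptake, iron storage and heme handling were followed across HIF-1β ChIP-seq libraries of 4 human cancer cell lines. They are TF, TFRC, SLC11A2, CP, FTH1, FTL, FECH and HMOX1, and make up 8 of the 20163 protein-coding genes of the annotation. The genes were chosen by name for their roles, with earlier results of these data known. Each gene was given a window that ran from 25 kb before its gene body to 25 kb after it on GRCh37 (hg19), and every peak that overlapped the window was assigned to the gene. The study set binding of the hypoxia-inducible factor (HIF) beside inherited cancer susceptibility, and these libraries served to map HIF-1β in cancers other than renal cancer.

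The lines were PC3 (prostate cancer), T47D (breast cancer), A549 (lung cancer) and HCT-116 (colorectal cancer), each an established line. All 4 groups received the same treatment, 0.5% oxygen for 16 h, and the same antibody against HIF-1β, so no library of cells in normal oxygen and no input library was analysed here and nothing below is a response to hypoxia. Each line had 2 replicates, numbered 1 and 2 in PC3 and T47D and 2 and 3 in A549 and HCT-116. The labels do not say that replicates were separate cultures, so p-values measure only the spread between these samples, which may be technical. The identity of the lines could not be checked against marker expression, since only genomic binding was measured.

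HIF is a pair of proteins made of an oxygen-regulated alpha subunit, HIF-1α or HIF-2α, and the constant partner HIF-1β, and it binds DNA at hypoxia response elements whose core reads ACGTG or GCGTG. Cells take up iron as transferrin bound to the transferrin receptor, move it out of the endosome through a divalent metal transporter, store it in ferritin, and insert it into protoporphyrin to make heme, which heme oxygenase later breaks down to release the iron. Transferrin, its receptor and ceruloplasmin are textbook HIF targets, part of the supply of iron for red cell production in low oxygen. Heme oxygenase and the ferritins are better known as targets of NRF2 and BACH1, factors that bind antioxidant-type elements.

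Among the 8 libraries the deposited lists held between 1042 and 3790 peaks, and with no reads in them the depth behind each peak is unknown. PC3 replicate 1 held 1042 peaks and replicate 2 held 2891, T47D 3061 and 2910, A549 1768 in replicate 2 and 1270 in replicate 3, and HCT-116 3790 and 1913. Every peak carries a score, and no list reached further down than 50, with a lowest score of at most 50.09. Because scores of separate libraries are not on a shared scale, each peak was placed by its percentile, the share of peaks in its own library that scored lower, with tied peaks placed at the middle of their ranks. A region where peaks of both replicates of a line overlapped by at least 1 bp was counted as a site of that line. Distances run from the midpoint of a peak or site to the transcription start site (TSS) of the Ensembl canonical transcript, and a minus sign means upstream.

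Stretches of the peaks that hold the motifs searched for are shown here on the strand of the gene, to let the elements be compared. For TFRC, TF, CP and FTL they hold the HIF core motif nearest to the shared centre of the peaks, in capitals. For CP another core lay close by and is also in capitals. The FTH1 stretch holds no HIF core, and its capitals mark an antioxidant-type motif, TGACNNNGC on either strand. The HMOX1 stretch holds both, a HIF core on both strands (CACGTG) followed by 4 antioxidant-type motifs, and was chosen for the latter. On GRCh37 the TFRC stretch is chr3:195809025-195809079 (minus strand, -118 to -64 from the TSS), the TF stretch chr3:133461668-133461732 (plus), the CP stretch chr3:148943084-148943209 (minus), the FTH1 stretch chr11:61739485-61739594 (minus), the HMOX1 stretch chr22:35767982-35768137 (plus) and the FTL stretch chr19:49468525-49468565 (plus).
TFRC: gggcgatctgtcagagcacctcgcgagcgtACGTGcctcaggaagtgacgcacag
TF: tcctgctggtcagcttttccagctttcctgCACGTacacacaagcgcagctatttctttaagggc
CP: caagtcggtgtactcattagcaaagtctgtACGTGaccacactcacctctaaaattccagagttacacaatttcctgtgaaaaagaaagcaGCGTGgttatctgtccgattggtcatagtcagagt
FTH1: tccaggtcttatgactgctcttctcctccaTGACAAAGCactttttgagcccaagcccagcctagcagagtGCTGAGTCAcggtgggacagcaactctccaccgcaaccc
HMOX1: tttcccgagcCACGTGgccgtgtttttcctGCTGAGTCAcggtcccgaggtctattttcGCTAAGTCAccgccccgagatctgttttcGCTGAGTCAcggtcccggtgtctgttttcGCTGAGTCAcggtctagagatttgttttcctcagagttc
FTL: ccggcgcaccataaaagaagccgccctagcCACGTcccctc

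Of the 8 genes, 6 had a site in at least 1 line, and TFRC, the gene of the transferrin receptor, was the only one with a site in all 4. With the higher-scoring 50% of each list alone, TFRC lost its A549 site. In A549, 5 genes had a site (TF, TFRC, CP, FTH1 and HMOX1). PC3 had 3 (TF, TFRC and CP), T47D had 2 (TF and TFRC), and HCT-116 had 2, TFRC and a site in the FTL window that lies at the start of the neighbouring gene BAX. SLC11A2 and FECH had no peak in any library. Of all protein-coding genes, 7.07% had a site in PC3, 16.0% in T47D, 6.01% in A549 and 14.2% in HCT-116, 24.4% had one in any line and 2.46% had one in all 4 lines. The member shares are counts over 8 genes and were given no test.

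With a peak of either replicate counted, PC3 had 5 genes, T47D 4, A549 5 and HCT-116 4, beside 17.5%, 27.2%, 10.3% and 29.1% of all protein-coding genes. In all, 31 peaks fell in the windows, and 24 of them were overlapped by a peak of the other replicate. The 7 that were not lay at FTL, FTH1 and HMOX1, and all 7 came from replicate 2 of PC3, T47D or HCT-116. Replicate 2 was the longer list in PC3 and HCT-116 and the shorter one in T47D.

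**Figure D1:**
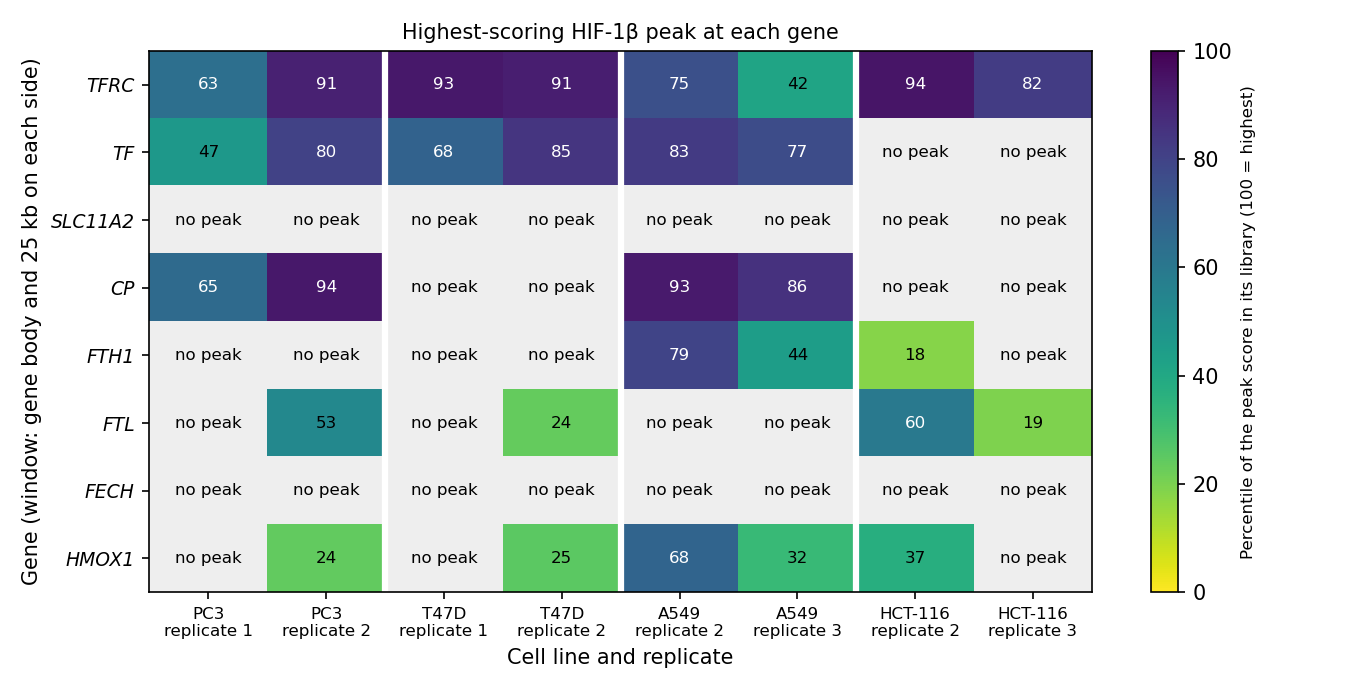
Percentile of the highest-scoring HIF-1β peak in the window of each gene (rows, gene body and 25 kb on each side) in each library (columns, cell line and replicate). Values close to 100 are the highest scores of a library. TFRC has a peak in all 8 libraries, TF in 6 and CP in 4, while SLC11A2 and FECH have none.

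Transferrin, the plasma protein that carries iron to cells, is encoded by TF (chr3:133464884-133515485, plus strand, TSS at 133465237). Its peaks formed 1 element centred at -3.5 kb from the TSS, present in both replicates of PC3, T47D and A549 and in neither of HCT-116. The score was 86.79 in PC3 replicate 1 (rank 557 of 1042, percentile 46.6) and 185.87 in PC3 replicate 2 (rank 572 of 2891, percentile 80.2). It was 115.69 (percentile 68.4) and 220.31 (percentile 84.7) in T47D replicates 1 and 2. In A549 the scores were 257.29 in replicate 2 and 180.42 in replicate 3, at percentiles 83.1 and 76.6. The 6 midpoints lay between -3616 and -3434 bp from the TSS, a spread of 182 bp, which is less than the width of any of these peaks.

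The 766 bp that all 6 TF peaks shared (chr3:133461347-133462112) held a single HIF core motif, 30 bp from their midpoint and at -3537 bp from the TSS, which is the one printed above. The element lies in an intron of the unnamed lncRNA gene ENSG00000291042 and overlaps no exon. In HCT-116 a window of 50 kb on each side of TF held no site either. The replicates differed by 33.6 percentile points in PC3, 16.3 in T47D and 6.49 in A549.

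The receptor gene TFRC (chr3:195739382-195809024, minus strand, TSS at 195808961) takes transferrin into the cell, and here every library had 1 peak over its promoter. In PC3 the scores were 117.92 (rank 383 of 1042, percentile 63.3) and 351.93 (rank 269 of 2891, percentile 90.7). T47D gave 356.79 and 356.62, at percentiles 93.5 and 91.5, the closest replicate pair of the set. A549 had 188.37 (percentile 75.5) in replicate 2 and 81.09 (rank 743 of 1270, percentile 41.5) in replicate 3. HCT-116 replicate 2 had 580.84 (percentile 94.4) and replicate 3 235.14 (percentile 82.4). A549 replicate 3 was the lowest of the 8 and PC3 replicate 1 the next. Both T47D percentiles lay above both of PC3, while those of HCT-116 reached on either side of T47D and A549 replicate 2 fell between the PC3 replicates.

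Outside T47D the TFRC peaks were 871 to 1897 bp wide with midpoints from -128 to 85 bp. The T47D peaks were 3421 and 3385 bp wide and reached further into the gene, which put their midpoints at 657 and 636 bp, and 2.09% and 1.07% of the peaks in those libraries were wider. All 8 peaks shared chr3:195808654-195809511, 858 bp of 64.1% GC that overlap the TSS and an exon of TFRC. This shared part held 2 HIF core motifs, at -86 and -395 bp from the TSS, and the whole sites held 6 in PC3, 9 in T47D, 3 in A549 and 5 in HCT-116.

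**Figure D2:**
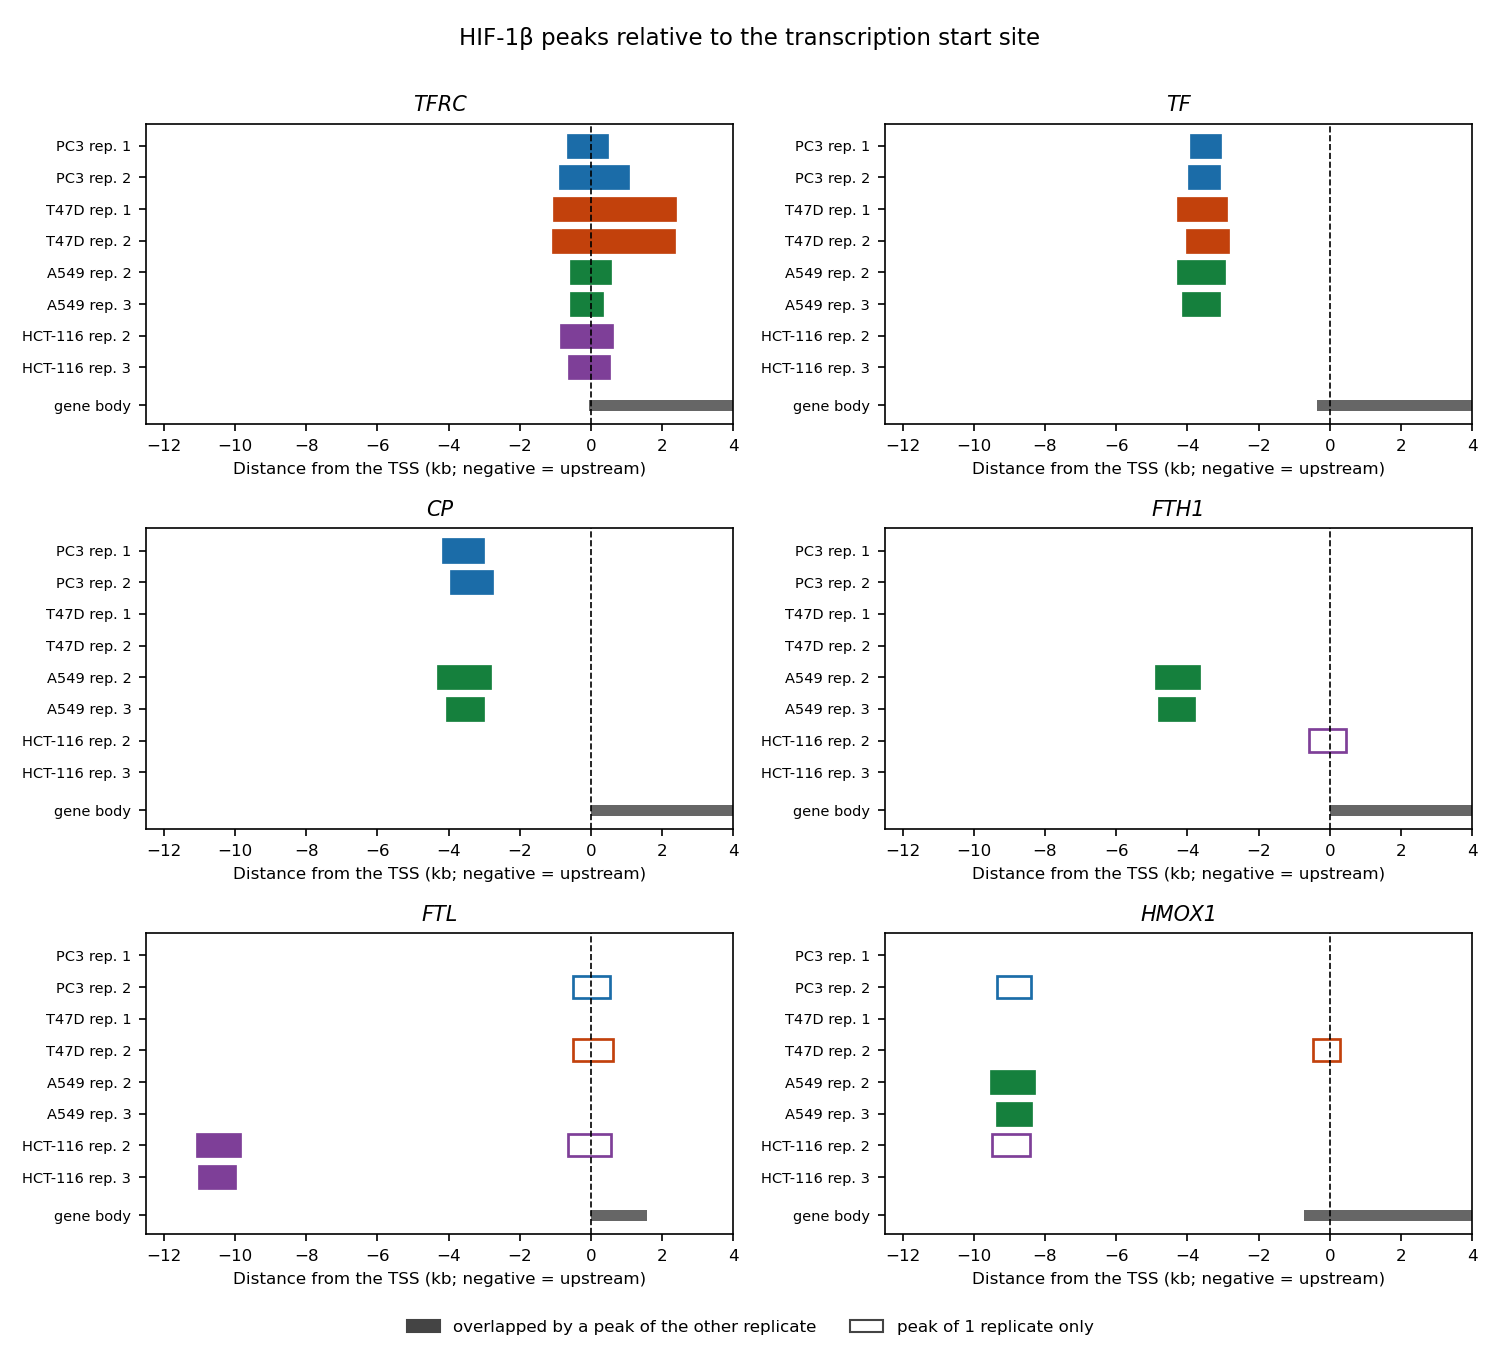
Position of each peak relative to the TSS (horizontal axis, in kb, upstream to the left) for the 6 genes with a peak, with libraries as rows. Filled bars are peaks overlapped by a peak of the other replicate, open bars are peaks of 1 replicate only, and grey bars are gene bodies. The TF peaks align at about -3.5 kb in 6 libraries, the CP peaks at about -3.5 kb in 4, and the TFRC peaks span the TSS in all 8.

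SLC11A2 (chr12:51373184-51422349, minus strand), whose product carries ferrous iron out of the endosome and into the enterocyte, had no peak within 25 kb. The closest peak lay 214520 bp from the gene body in PC3, 209188 bp in T47D, 1118210 bp in A549 and 54139 bp in HCT-116. The HCT-116 one is a site at CSRNP2. No peak in the list means only that none passed the threshold of the peak caller, since the lists hold no signal below it.

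Ceruloplasmin, the copper ferroxidase that oxidises iron for loading on transferrin, is encoded by CP (chr3:148880197-148939616, minus strand, TSS at 148939616). CP had a site in PC3 and A549 and no peak in T47D or HCT-116. In PC3 the scores were 123.17 (rank 362 of 1042, percentile 65.3) and 452.66 (rank 183 of 2891, percentile 93.7). In A549 they were 524.67 (rank 125 of 1768, percentile 93.0) and 280.11 (rank 182 of 1270, percentile 85.7). Of the 31 member peaks, that of TFRC in HCT-116 replicate 2 had the highest percentile (94.4), ahead of CP in PC3 replicate 2 (93.7).

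The 4 CP midpoints fell between -3592 and -3359 bp, within 233 bp of each other. The 913 bp they shared (chr3:148942648-148943560) had 40.7% GC and held 2 HIF core motifs, at -3500 and -3561 bp, of which one reads ACGTG and the other GCGTG on the gene's strand. An exon of the unnamed lncRNA gene ENSG00000286714 overlaps the element. The closest T47D peak lay 31977 bp from the gene body, at the start of HPS3, and the nearest sites lay 1540704 bp away in T47D and 359638 bp in HCT-116.

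The ferritin genes encode the heavy and light chains of the iron storage shell. FTH1 (chr11:61727190-61735106, minus strand, TSS at 61735106) had a site in A549 only, centred at -4.3 kb. Replicate 2 scored 223.51 (rank 364 of 1768, percentile 79.4) and replicate 3 scored 86.03 (rank 706 of 1270), so that the replicates differed by 35.0 percentile points. The midpoints were -4275 and -4295 bp, in intergenic sequence. A different FTH1 peak, over the promoter at -61 bp, was called in HCT-116 replicate 2, with a score of 61.21 that ranked 3098.5 of 3790 (percentile 18.3) and with no counterpart in replicate 3.

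The FTH1 site in A549 was the only 1 of the 12 member sites, counted separately in each line, without a HIF core motif. Such sites were uncommon, 39 of the 1041 sites of A549 (3.75%). It held 2 antioxidant-type motifs, at -4413 and -4454 bp, and 1 of them reads TGACTCAGC, the stricter form, on the opposite strand. In A549, 47.07% of sites held TGACNNNGC and 37.94% of flanking regions did, while TGACTCAGC was in 7.49% of sites and 2.16% of flanks. The flanks were regions of the same length 5 kb away. These motifs were searched after the positions of the peaks had been seen.

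FTL (chr19:49468566-49470136, plus strand, TSS at 49468566) had promoter peaks in replicate 2 of 3 lines and in no replicate pair. They scored 92.52 in PC3 (percentile 53.2), 61.97 in T47D (percentile 23.6) and 115.22 in HCT-116 (percentile 59.7), with midpoints at 4, 55 and -40 bp. A549 had none. The shared part held 6 HIF core motifs, and the one printed above is centred at -9 bp.

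In HCT-116 the FTL window held a site with both replicates, scored 106.11 (percentile 55.3) and 60.8 (percentile 19.4), at -10462 and -10511 bp. Those midpoints lie 28 and 77 bp from the TSS of BAX, a gene of apoptosis, and so the count of 2 genes for HCT-116 includes a site that is closer to another gene's start than to FTL. The part shared by both peaks held 10 HIF core matches, 8 of which belong to 4 palindromes CACGTG that match on both strands. Just beyond the window, a site at the start of GYS1, the muscle glycogen synthase gene, lay 917 bp past the limit in T47D (percentiles 77.0 and 61.1) and 919 bp past it in HCT-116 (percentiles 87.3 and 75.3).

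FECH (chr18:55211609-55253964, minus strand), which inserts iron into protoporphyrin in the last step of heme synthesis, had no peak. The closest peaks lay 457779 bp from its body in PC3, 215912 bp in T47D, 905137 bp in A549 and 457691 bp in HCT-116.

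HMOX1 (chr22:35776354-35790207, plus strand, TSS at 35777089) encodes heme oxygenase 1, the inducible enzyme that opens the heme ring. It had a site in A549, centred at -8.9 kb, with scores of 144.87 (rank 572 of 1768, percentile 67.7) and 69.75 (rank 858.5 of 1270, percentile 32.4). The same element had a peak in PC3 replicate 2 (score 62.57, percentile 23.9) and HCT-116 replicate 2 (score 78.47, percentile 37.3), each without a counterpart in the other replicate. T47D had no peak there, and its replicate 2 had a promoter peak at -84 bp instead (score 62.95, rank 2183 of 2910). In T47D a site also lay 28634 bp from the gene body, which is 3634 bp beyond the window.

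The 4 peaks of the upstream HMOX1 element had midpoints from -8957 to -8874 bp, within 83 bp of each other, and shared chr22:35767740-35768673. These 934 bp held 5 HIF core matches and 4 antioxidant-type motifs at -9073, -9044, -9015 and -8986 bp, spaced as a repeat in the stretch printed above. The HIF core nearest to the midpoint, at -8869 bp, lies outside that stretch. The whole A549 site held 5 such motifs, of which 3 read TGACTCAGC. At least 4 antioxidant-type motifs, the number in this shared part, were found in 7 of the 1041 A549 sites (0.67%), this one included. The share was 0.14% in A549 flanks. In the other lines it was 1.34% of sites and 0.82% of flanks in PC3, 1.84% and 1.16% in T47D, and 1.54% and 0.8% in HCT-116. An exon of the unnamed lncRNA gene ENSG00000282602 overlaps the element.

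**Figure D3:**
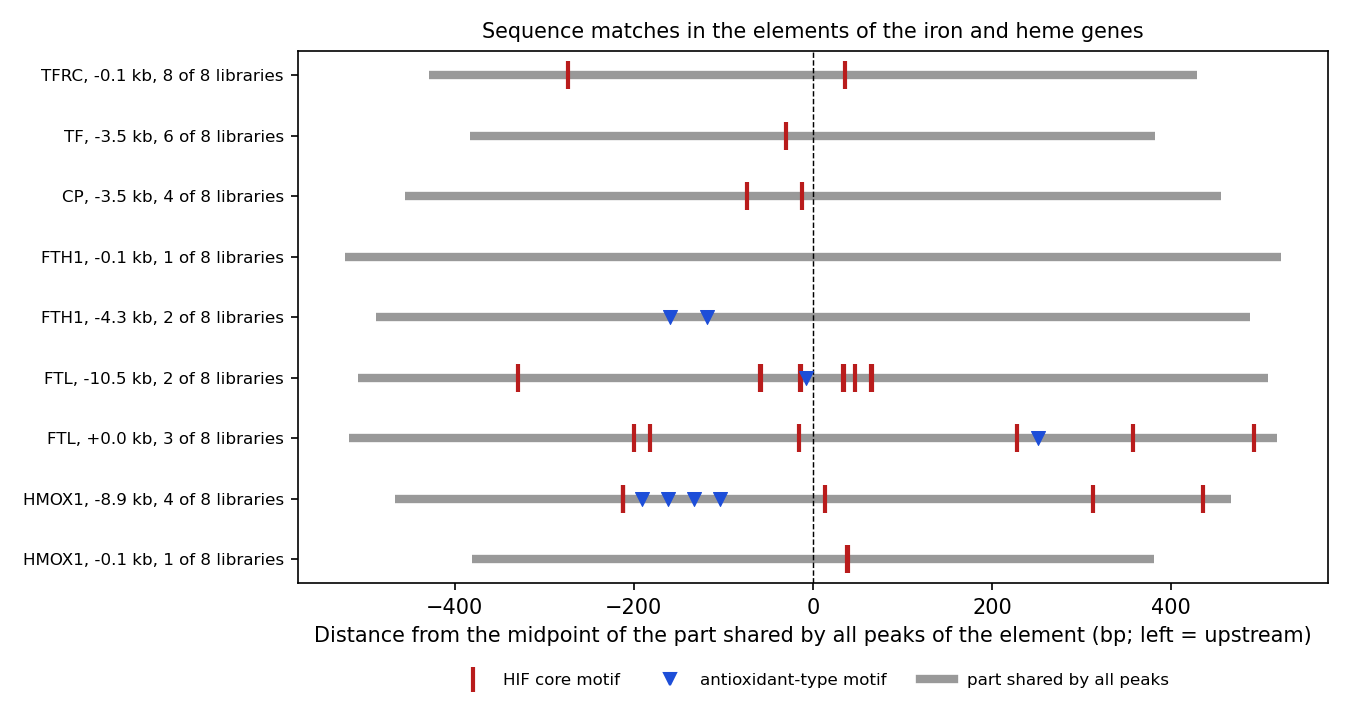
Positions of HIF core motifs (ACGTG or GCGTG, red bars) and antioxidant-type motifs (TGACNNNGC, blue triangles) in the part shared by all peaks of each element (grey), in bp from its midpoint. TF has 1 HIF core 30 bp from the midpoint, the FTH1 element at -4.3 kb has 2 antioxidant-type motifs and no HIF core, and the HMOX1 element at -8.9 kb has 4 antioxidant-type motifs on one side of the midpoint.

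Of the 12 member sites, 11 held a HIF core motif, and 10 held one in their central 200 bp. These are not 12 separate sequences, since an element was counted once in each line, TFRC in 4 lines, TF in 3 and CP in 2. Among all sites the core was found in 98.35% in PC3, 96.31% in T47D, 96.25% in A549 and 99.03% in HCT-116, and in 73.15% to 81.86% of flanks of equal length. Within the central 200 bp, 64.26% to 73.81% of all sites and 23.09% to 24.23% of flanks held it. A match anywhere in a region was thus common in flanks too, and the central share differed more between sites and flanks. A match is a description of the letters and does not show which bases were bound.

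Differences between the lines were tested with an exact permutation test, one-sided, on the 8 percentiles of each window (0 where the window had no peak). The test asked whether replicates of a line lie closer together than under every other way to divide the libraries into 4 pairs, and p-values were adjusted by Benjamini-Hochberg over the 8764 coding genes with a peak in any library. CP had the lowest value of the members, exact permutation p = 0.0857 (adjusted p = 0.3651), with all 4 PC3 and A549 libraries above all 4 of T47D and HCT-116. TF and FTH1 each had an exact permutation p of 0.1429 (adjusted p = 0.3651). TFRC had 0.3143 (adjusted p = 0.6936), HMOX1 0.6 and FTL 0.7714 (adjusted p of 1 for both) in the same exact permutation test. SLC11A2 and FECH could not be tested.

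No gene of the 8764 had an adjusted p at or under 0.05 in this exact permutation test, where 773 (8.82%) had an unadjusted one. The smallest p that these divisions allow is 0.0095, and a window with no peak in 2 of the lines, as for CP, cannot go below 0.0286. FTH1, with 5 libraries at 0, was at the lowest value its pattern allows. An adjusted p could pass only if a large number of genes sat at these floors together, so the adjusted values do not show that the lines did not differ. The spread itself was wide at several sites. Replicates differed by 27.4, 33.6 and 28.4 percentile points at TFRC, TF and CP in PC3, and by 33.95, 35.0 and 35.2 points at TFRC, FTH1 and HMOX1 in A549, whereas TFRC in T47D differed by 2.02 and CP in A549 by 7.25.

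In PC3 the member peaks of replicate 1 had lower percentiles than those of replicate 2 at TFRC, TF and CP, and replicate 1 is the shortest of the 8 lists. In A549 replicate 3, the shorter list, lay below replicate 2 at all 5 members with a site. The part that list length plays in these percentiles was not tested.

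The genes whose 8 percentiles were most like those of a member were found by the mean absolute difference over the 8 libraries. NREP came closest to TFRC (4.4 percentile points). FAM13A was closest to TF (6.42), DPT to CP (3.89), PDE4B to FTH1 (0.94), TMOD3 to FTL (3.91) and HLCS to HMOX1 (9.14). Windows with peaks in the same few libraries reach small values easily, so that the value for FTH1 rests on 3 libraries with a peak.

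Beyond the members, 60 other genes of iron and heme metabolism were listed by role. A site lay in the window of 6 of them in PC3 (10.0%), 16 in T47D (26.7%), 8 in A549 (13.3%) and 12 in HCT-116 (20.0%). Each share was above that among all protein-coding genes given earlier, by counts only and with no allowance for gene length, which widens a window. The list was drawn up with earlier results of these data known, so these shares are description and no independent evidence. In any line, 21 of the 60 had a site (35.0%), made up of 6 of 17 genes of iron transport, 4 of 17 of iron storage and regulation, 5 of 12 of heme synthesis and 6 of 14 of heme transport and breakdown. For many of the 21 every site lay nearest to another gene's TSS. They were HEPHL1 (PANX1), TFR2 (PCOLCE), SLC22A17 (PABPN1), PCBP2 (TARBP2), ALAD (POLE3), TMEM14C (ENSG00000272162), HMOX2 (NMRAL1), BLVRB (SERTAD1) and FLVCR2 (ERG28). The share among all protein-coding genes counts such sites in the same way. ABCB6, a porphyrin transporter, and SLC25A37, the mitochondrial iron importer mitoferrin, had a site in all 4 lines.

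ABCB6 had the highest mean percentile of the list (79.8). Its promoter held a site in T47D (percentiles 30.6 and 54.8), A549 (50.9 and 33.7) and HCT-116 (90.4 and 80.8), between 238 and 407 bp from the TSS. Another site, nearest to ANKZF1, lay at -11366 bp in PC3 (percentiles 83.6 and 93.9), -11130 bp in T47D (94.7 and 93.0) and -11095 bp in HCT-116 (93.4 and 79.9), so that the mean for ABCB6 rests in part on a site closer to another gene. SLC25A37 had a site 12515 to 12754 bp downstream of its TSS in every line. CPOX, which makes protoporphyrinogen, had a promoter site in PC3 (-188 bp), A549 (-324 bp) and HCT-116 (19 bp). Thus CPOX, an earlier enzyme of the same route, had a site in 3 lines in which FECH had no peak.

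Among regulators, NFE2L2, the gene of NRF2, had a site near its TSS in T47D, A549 and HCT-116. BACH1, a repressor of HMOX1 that senses heme, had a site between -40015 and -39828 bp in PC3 (percentiles 91.6 and 97.0), A549 (92.5 and 84.0) and T47D (25.8 and 47.2) and no peak in HCT-116. The window of BACH1 reaches that site because the gene record starts upstream of the canonical TSS. PCBP1, an iron chaperone for ferritin, had a promoter site in PC3, T47D and HCT-116. LRP1, a receptor for the heme carrier hemopexin, had a site at -1134 bp in PC3 and -1120 bp in HCT-116. Its A549 site was a different one, at 38005 bp, and HCT-116 also had sites in the window nearest to STAT6. TMEM14C, which moves porphyrin into the mitochondrial matrix, had a site in T47D and HCT-116 that lies nearest to an unnamed gene, ENSG00000272162.

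**Figure D4:**
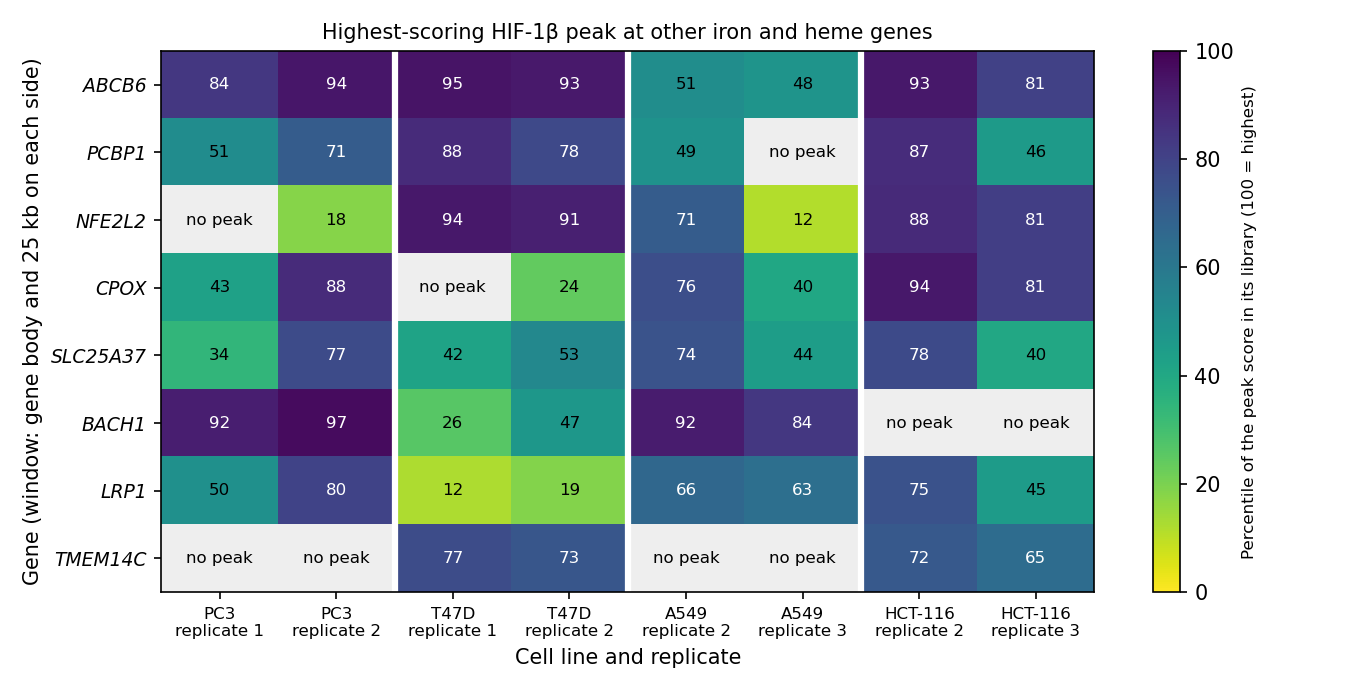
Percentile of the highest-scoring HIF-1β peak in the window of the 8 other iron and heme genes with the highest mean percentile (rows), in each library (columns). Values close to 100 are the highest scores of a library. ABCB6 and SLC25A37 have a peak in all 8 libraries, and BACH1 has none in HCT-116.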

How the data were processed

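HIF-1β was immunoprecipitated from hypoxic cells and the DNA sequenced. Per the labels and the study's methods, the authors trimmed reads with Trim Galore 0.3.3, aligned them with BWA 0.7.5a-r405, processed them with SAMtools 0.1.19, Picard 1.106 and bedtools 2.17.0, and called peaks with MACS (version not given in the sources used here) in each library on GRCh37 (hg19). The methods also name T-PIC as a peak caller, whose selection cannot be seen in the lists. The authors deposited 1 list per library with an interval, a name and a score for each peak. No header explains the score, whose floor near 50 in every list sets which peaks can be seen. No authors' comparison was used.

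Interval starts were raised by 1 to read 1-based. Genes came from GENCODE 44 lifted to GRCh37, which is the build of the lists by chromosome names and lengths. Sites were merged from peaks of both replicates in Python 3.11.15 with NumPy 2.4.6, and sequence was read with pysam 0.24.0 from the GRCh37 genome. The merging step was checked against bedtools 2.31.1 on simulated intervals only. A percentile is taken at the middle of a peak's rank, so that the highest score of a library lies just below 100. It is 0 for a window with no peak. The pairing test, which ran over all coding genes, was tested on simulated data first. The members and lists were chosen with earlier results of these data known. The other genes named were the 8 of the list with the highest mean percentile, genes with a site in all 4 lines, and the genes closest to each member in pattern. Alternatives were the window, the overlap, a peak of either replicate, a shorter list, the rank scale, a replicate block, leaving out a replicate and, for distances, the nearest coding TSS of the gene.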

Additional observations from a re-analysis of the deposited data

How the results depend on the processing

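The counts of genes with a site were 3 in PC3, 2 in T47D, 5 in A549 and 2 in HCT-116, and a 10 kb window or an overlap of 50% of both peaks gave the same genes. A 50 kb window gave 4 in T47D, adding FTL and HMOX1. Only TFRC remained within 2 kb of the TSS, 1 gene in each of PC3, T47D, A549 and HCT-116. With a peak of either replicate the counts were 5 in PC3, 4 in T47D and 4 in HCT-116. The 1000 highest-scoring peaks of each list gave 1 in HCT-116, and the higher-scoring 50% gave 2 in PC3 (TF lost), 2 in A549 (TF and CP, with TFRC lost) and 1 in HCT-116. Leaving out a replicate gave 3 to 5 in PC3 (5 without replicate 1), 2 to 4 in T47D (4 without replicate 1), 5 in A549 and 2 to 4 in HCT-116 (4 without replicate 3), where a line then counts the peaks of 1 list. For the 60 other iron and heme genes, a 10 kb window gave 10 in T47D and 7 in HCT-116. A peak of either replicate gave 15 in PC3 and 21 in HCT-116, beside 17.5% and 29.1% of all protein-coding genes. For the other windows, the 50% overlap, the shorter lists and the runs without a replicate, the share among all protein-coding genes was not computed. Those counts, of members and of other genes, can therefore not be read as above or below it.

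The number of genes with an adjusted p at or under 0.05 was 0 in each alternative run, including the replicate block, where replicate numbers shared by lines were taken as paired and 884 of 8764 genes had an unadjusted p at or under 0.05. The block changed no call of a member. For TF and CP the exact permutation p was 0.0286 on the log10 rank scale and with the 1000 highest-scoring peaks, and between 0.0857 and 0.1429 in the other alternatives. The causes were not tested. Leaving out a replicate leaves a line with 1 list, so the pairing test could not be run. With distances taken from the nearest coding TSS of each gene, the upstream HMOX1 midpoints ran from -8222 to -8139 bp. The T47D midpoints at TFRC became 95 and 74 bp, and those at TF ran from -3263 to -3081 bp. Midpoints at CP, FTH1 and FTL did not change. Unknown depth means that a peak absent from a list cannot be told apart from one just below the score floor.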

Other observations

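SLC40A1, the gene of the iron exporter ferroportin, is not among the members or the genes named by rule and was picked after its values were seen. It had a site in T47D alone, at chr2:190405339-190407653, 39016 bp downstream of its TSS, with scores of 541.67 and 694.23 (percentiles 96.3 and 96.4), above the percentile of every member peak in these lists.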
